A study of Rattus norvegicus with 16 samples.

Results

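The fibre of a rat eye muscle was compared with the fibre of a rat leg muscle, both away from the neuromuscular junction. The 8 arrays are all those titled as fibre: 4 of rectus extraocular muscle (EOM_fiber) and 4 of tibialis anterior (TA_fiber), out of 16 arrays in the series. The other 8 arrays hold junction regions of the same muscles. They enter the normalization, the filter, the choice of probe set and the fit with its shared estimate of spread. Their own values are given only in the closing comparison. All tissue came from 4 rats numbered 15, 25, 27 and 29, each giving 1 array per group, and the labels name no treatment, strain or age. Sections of 10 µm were stained for acetylcholinesterase to show the junctions, and regions without stain were catapulted by laser, about as many as the 1000 junctions taken per muscle. The sections carried whole rectus muscles still attached to the globe, and the labels do not say from which layer of these muscles regions were taken.

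Extraocular muscles turn the eye, and their fibres are known for very fast contraction, resistance to fatigue and a mixture of myosins that limb muscle loses after birth. They arise from cranial mesoderm, whereas tibialis anterior arises from limb-level somites whose cells carry Hox genes as a record of body position. Skeletal fibres contract when calcium leaves the sarcoplasmic reticulum and binds troponin, and the heavy chain of myosin sets much of their speed. Tibialis anterior of the rat is mostly fast fibre.

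Levels are log2(intensity + 16) after quantile normalization, on which a probe set without signal sits near 4 and the array median is 5.88. Differences are EOM minus TA, in log2 with the standard error (SE) of the limma fit, and folds on this scale understate the change of dim genes. The deposited medians overlapped between the groups, from 39.43 to 57.04 in EOM and from 33.43 to 51.51 in TA. Ratios of 3' to 5' Gapdh probe sets also overlapped, at 10.7 to 14.8 and 10.5 to 15.4, but the ratio of 3' to middle Actb probe sets did not, at 10.4 to 14.3 in EOM and 23.9 to 46.1 in TA. Whether RNA length had a part in any difference below was not tested. On both fibre arrays of rat 25 Xist, the RNA of the inactive X chromosome, was high (11.43 and 10.19) and the Y-linked Eif2s3y low (4.17 and 4.08), the reverse of the other 3 rats, so the arrays with that number carry the same sex-linked pattern.

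A gene was tested if its brightest probe set exceeded the array median on at least 4 of all 16 arrays. Of 10416 genes tested, 1620 passed an adjusted p of 0.05, which is 15.6%. EOM fibre was higher for 875 of them (8.4% of genes tested) and lower for 745 (7.15%), and the median difference of all genes was 0.03. A difference of at least 1 was met by 943 called genes and of at least 2 by 148. A call is termed firm below where the sign was the same in all 4 rats and the call was kept in each of 8 fits that left out 1 fibre array, which held for 488 higher and 390 lower genes. Gene lists are given by counts and medians, to be read against these shares. A gene dim in 1 muscle could pass the filter through the other, so the figures of lists with such members are a description.

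Myosin heavy chains held the 2 largest rises. Myh13, the extraocular heavy chain, read 14.66, 13.97, 13.89 and 13.91 on the EOM arrays of rats 15, 25, 27 and 29, against 4.64, 5.09, 6.26 and 6.12 on the TA arrays. The groups lie far apart, with TA around the array median, a difference of 8.58 ± 0.33 (383-fold, adjusted p = 3.48e-09). Myh8, the perinatal heavy chain, read 14.25, 13.47, 13.61 and 12.54 in EOM and 6.13, 5.44, 4.71 and 4.41 in TA, a difference of 8.29 ± 0.32 (adjusted p = 3.48e-09). Myh3, the embryonic heavy chain, was the most uneven of the set: EOM read 14, 11.04, 13.15 and 9.14 and TA 7.26, 4.32, 4.37 and 5.79. Every EOM array exceeded every TA array, but the EOM arrays of rats 15 and 29 stood 4.86 apart; the difference was 6.40 ± 0.77 (adjusted p = 0.000108). Myh6, the alpha-cardiac heavy chain, read 7.46, 9.99, 8.09 and 8.05 against 5.32, 4.27, 5.73 and 5.43, with a difference of 3.21 ± 0.62 (adjusted p = 0.00325). A second, dim Myh6 probe set differed by -0.38.

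The adult heavy chains did not move with them. Myh4, the fastest limb heavy chain, read 14.75, 15.33, 14.63 and 14.69 in EOM and 14.79, 14.96, 14.44 and 14.79 in TA, and Myh1, the 2X heavy chain, differed by 0.05 ± 0.23 (adjusted p = 0.912). For both genes the groups overlap. Myh2, the 2A heavy chain, was lower in every rat by the estimate, at -0.67 ± 0.25, without passing the threshold (adjusted p = 0.084). Myh7, the slow heavy chain, read 13.05, 14.14, 12.79 and 13.43 in EOM and 13.44, 12.4, 11.17 and 12.87 in TA, higher in 3 of 4 rats (0.89 ± 0.42, adjusted p = 0.176). These genes are near-identical copies in parts of their sequence, and signal shared between their probe sets was not tested; the 4 other Myh1 probe sets differed by -0.45 to 0.40.

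The neighbouring genes Myh1, Myh4, Myh8 and Myh13 lie in that order on the same strand of chromosome 10, and the first 2 did not differ while the last 2 rose by over 8 in log2. Myh3, at 52269185 to 52293000 on that chromosome, lies before them and rose by 6.40, so the rises do not follow gene order. The start regions of Myh1, Myh4, Myh8 and Myh13 are printed, 250 bases before to 50 after the start that RefSeq annotates on GRCr8, 5′ to 3′ on the plus strand. Capitals mark E-boxes (CANNTG) and MEF2 sites, the elements to which myogenic factors and MEF2 proteins bind. The windows are chr10:52384662-52384961 for Myh1, chr10:52421898-52422197 for Myh4, chr10:52462259-52462558 for Myh8 and chr10:52511523-52511822 for Myh13.
Myh1: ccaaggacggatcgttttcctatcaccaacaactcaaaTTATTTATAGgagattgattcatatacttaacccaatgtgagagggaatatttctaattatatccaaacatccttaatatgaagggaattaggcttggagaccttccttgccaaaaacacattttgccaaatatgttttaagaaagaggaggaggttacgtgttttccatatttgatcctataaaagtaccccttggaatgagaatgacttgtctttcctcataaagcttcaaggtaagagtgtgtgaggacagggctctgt
Myh4: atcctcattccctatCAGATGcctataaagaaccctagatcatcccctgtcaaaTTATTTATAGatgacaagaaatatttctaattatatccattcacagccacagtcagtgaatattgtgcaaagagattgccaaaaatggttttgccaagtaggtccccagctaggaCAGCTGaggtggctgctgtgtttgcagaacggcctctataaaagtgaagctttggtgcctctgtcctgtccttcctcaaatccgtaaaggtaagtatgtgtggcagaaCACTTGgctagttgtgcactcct
Myh8: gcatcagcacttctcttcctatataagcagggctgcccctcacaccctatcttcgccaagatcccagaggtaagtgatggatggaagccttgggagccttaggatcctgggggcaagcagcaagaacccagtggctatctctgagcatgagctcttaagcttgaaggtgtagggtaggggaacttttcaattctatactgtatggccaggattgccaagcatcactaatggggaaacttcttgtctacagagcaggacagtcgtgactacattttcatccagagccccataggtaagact
Myh13: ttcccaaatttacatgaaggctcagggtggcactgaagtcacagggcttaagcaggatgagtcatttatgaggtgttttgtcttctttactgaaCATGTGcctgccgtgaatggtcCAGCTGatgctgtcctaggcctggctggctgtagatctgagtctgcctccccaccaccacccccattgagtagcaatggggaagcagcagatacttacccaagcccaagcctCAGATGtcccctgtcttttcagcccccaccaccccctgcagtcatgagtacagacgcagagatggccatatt
A MEF2 site lies in the Myh1 window and in the Myh4 window, and none was found in those of Myh8 and Myh13. Nor did the window of Myh2 (chr10:52355489-52355788), which lies before Myh1 on the same strand and was not called, hold any. Whether such matches go with the calls was not tested. Of 33469 RefSeq windows of 300 bases, 3.29% hold a MEF2 site and 72.1% an E-box on either strand. E-boxes numbered 0 for Myh1, 3 for Myh4, 0 for Myh8 and 3 for Myh13. A match is a string of letters only, and no measurement of binding exists here. The annotated starts of Myh8 and Myh13 were not checked and may not be where these genes start. Neither a match nor the lack of one in those windows therefore says anything of their promoters.

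**Figure D1:**
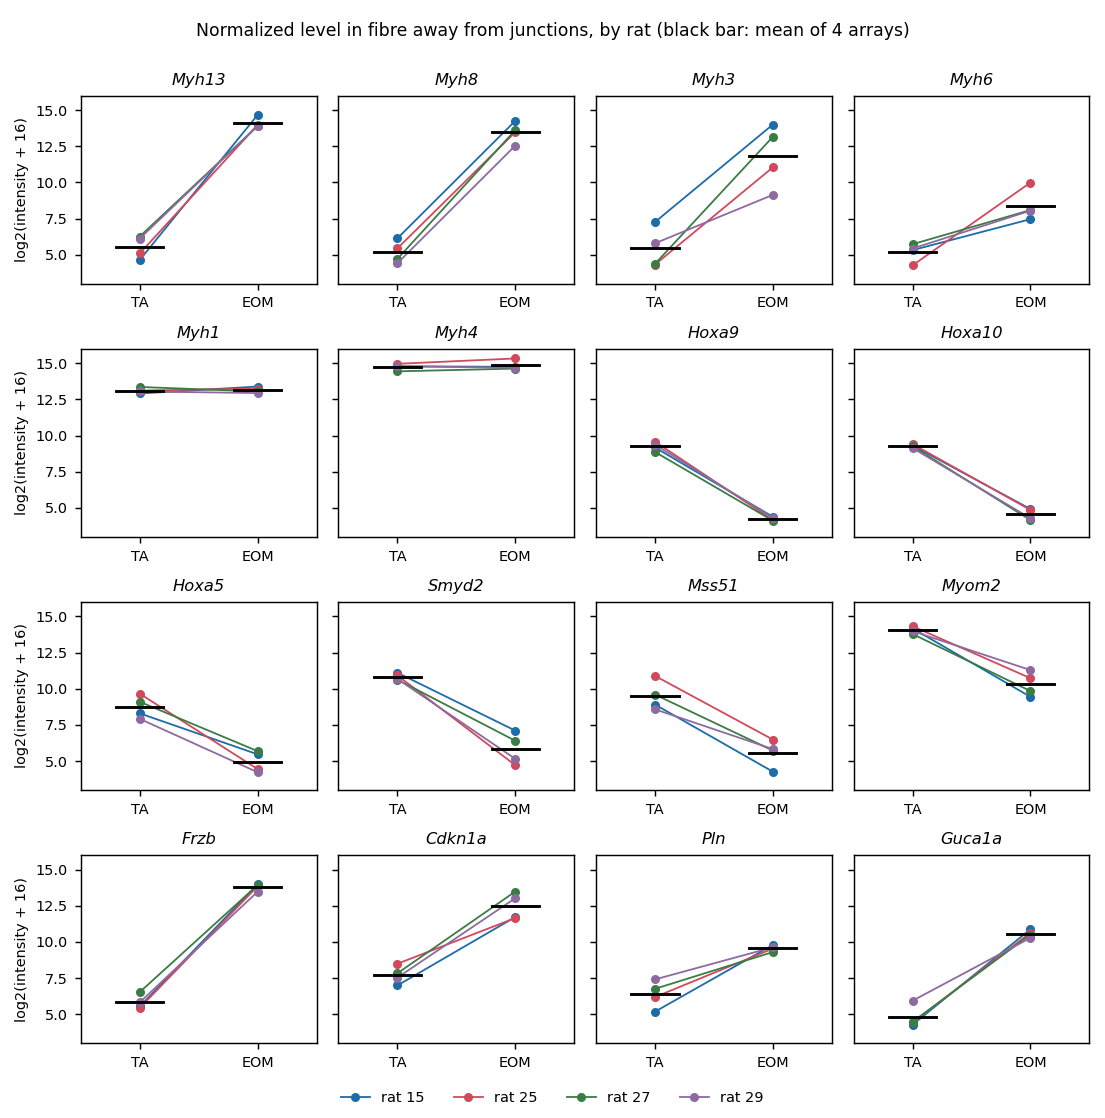
Normalized level, log2(intensity + 16), of 16 genes on the TA and EOM fibre arrays; each line joins the arrays of 1 rat and the black bars are means of 4 arrays. Myh13, Myh8 and Frzb are higher in EOM in every rat by about 8, the lines of Myh1 and Myh4 are nearly flat, and those of Hoxa9 and Hoxa10 fall below 5 in EOM.

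Mybphl and Tnnt2, cardiac sarcomere proteins, were also higher. Of 9 tested genes on the list of developmental, extraocular and cardiac sarcomere proteins, 7 were higher and 0 lower, with a median of 3.21, and 6 calls were firm; Myh13, Myh8, Myh3 and Myh6 are among the 7. Genes such as Myh6, dim in TA, passed the filter on low values through EOM, so this count and median are a description. Mybphl, a cardiac relative of the myosin-binding proteins, read 10.94, 10.22, 10.82 and 11.56 against 5.51, 5.97, 6.44 and 5.71, so EOM lay above TA throughout (4.97 ± 0.35, adjusted p = 1.45e-06). Tnnt2, the cardiac troponin T, was 2.80 ± 0.47 higher (adjusted p = 0.00122), although the EOM array of rat 29, at 5.99, fell among the TA values of 4.15 to 6.11. A dimmer probe set of Tnnt2 differed by 0.10. The remaining call, Mybpc3 at 1.24, was lost without 6 of the 8 fibre arrays in turn (adjusted p 0.0561 to 0.135).

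Adult fast and slow sarcomere proteins were mostly level or lower. On the fast list 0 of 14 were higher and 4 lower (median -0.09); 5 were lower on the deposited scale (median -0.48) and 5 with centred arrays (-0.63). Mylk2, the kinase that phosphorylates the fast regulatory light chain, read 9.85, 9.06, 8.63 and 9.3 in EOM and 11.48, 11.51, 10.36 and 10.9 in TA, a difference of -1.86 ± 0.22 (adjusted p = 0.000108). Mybpc2, the fast myosin-binding protein C, fell by 1.04 on the log2 scale and Actn3, the fast-fibre alpha-actinin, by 1.0, both with no overlap of the groups. Acta1, skeletal actin, was the fourth (-0.69) and lost its call without the EOM array of rat 15 or the TA array of rat 15 or 27 (adjusted p 0.0539 to 0.0546).

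Slow proteins did not change together. Tnni1, the slow troponin I, was 1.62 ± 0.37 higher (adjusted p = 0.00937), at 12.05, 12.42, 10.98 and 12.15 against 11.23, 9.77, 9.42 and 10.71. Its groups overlapped by the EOM array of rat 27 alone. Myl3, the slow essential light chain, went the other way, at 10.85, 10.95, 10.17 and 10.87 against 13.13, 11.51, 12.65 and 12.66 (-1.78 ± 0.37, adjusted p = 0.00541). Actn2, the alpha-actinin of all fibres (-1.26 ± 0.28), and Mybpc1, the slow myosin-binding protein C (-0.78 ± 0.17), were also lower in all 4 rats. In all, 2 of 12 slow-list genes were higher and 4 lower (median -0.30), against 1 and 4 on the deposited scale (-0.45) and 1 and 4 with centred arrays (-0.60). Less firm were Tnnt1 at 1.32, lost without 7 of the 8 arrays (adjusted p 0.0547 to 0.154), and Csrp3 at -1.49, lost without 6 (0.0567 to 0.136). Myl2, the slow regulatory light chain, differed by 0.10 ± 0.44.

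The M-band, which cross-links thick filaments mid-sarcomere, and the Z-disc, which anchors thin filaments, gave 0 higher and 7 lower of 26 tested, 5 of them firm, with a median of -0.22. On the deposited scale 11 were lower (median -0.56) and with centred arrays 9 (-0.71). Myom2, the M-protein of fast fibres, read 9.44, 10.73, 9.84 and 11.29 in EOM and 14.17, 14.32, 13.78 and 13.98 in TA. The TA arrays lie within 0.54 of each other and all EOM arrays at least 2.49 below them, a difference of -3.73 ± 0.32 (adjusted p = 9.16e-06). Ankrd23, a titin-associated ankyrin repeat protein, fell by 2.57 (adjusted p = 3.84e-05). Myot, the Z-disc protein myotilin, fell by 1.04, from 12.96 to 13.14 in TA down to 11.49 to 12.43 in EOM. Pdlim5 and Synpo2, further Z-disc proteins, fell by 1.04 and 1.0, but averaging all probe sets of each gene left neither call (adjusted p = 0.223 and 0.309), and another bright Synpo2 probe set differed by 0.54. Neb, nebulin (-0.69), lost its call without 3 arrays, the EOM and TA arrays of rat 15 and the TA array of rat 29, and Myoz1 (-0.62) without 6.

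Among chaperones and lysine methyltransferases of the sarcomere, 5 of 16 were higher and 2 lower, with a median of 0.05 that turned to -0.09 on the deposited scale and -0.24 with arrays centred on their medians, with 3 higher on the former and 1 on the latter. Both falls were large. Smyd2, a methyltransferase that acts in the cytoplasm at the titin-rich I-band, read 7.11, 4.72, 6.41 and 5.16 in EOM against 11.11, 10.92, 10.63 and 10.68 in TA (-4.99 ± 0.43, 31.7-fold, adjusted p = 9.61e-06). Mss51, a muscle protein tied to mitochondria, read 4.27, 6.49, 5.73 and 5.83 against 8.91, 10.89, 9.6 and 8.58 (-3.91 ± 0.38, adjusted p = 2.44e-05). For both genes the EOM arrays lie between 4.27 and 7.11 and the TA arrays above 8. Bag3, a co-chaperone that clears damaged filamin, was 0.77 ± 0.17 higher (adjusted p = 0.00777), a call lost with centred arrays (adjusted p = 0.186). The less firm rises were Hspb2 (1.14), lost without 3 arrays, the EOM and TA arrays of rat 15 and the TA array of rat 29, Smyd1 (0.68), lost without 6, Klhl40 (0.60), lost without 7, and Hspb6 (0.64), lost without each of the 8 in turn.

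Hox genes were among the largest falls. Of 13 tested genes of trunk and limb position, 9 were lower and 1 higher, with a median of -1.21. Hoxa9 read 4.39, 4.16, 4.12 and 4.31 in EOM and 9.18, 9.58, 8.87 and 9.38 in TA (-5.01 ± 0.26, 32.1-fold, adjusted p = 5.45e-08). Hoxa10 read 4.92, 4.86, 4.16 and 4.28 against 9.31, 9.41, 9.26 and 9.14 (-4.73 ± 0.29, adjusted p = 4.46e-07). All 4 EOM arrays lie below the array median for both genes, so the folds are set by the floor of the scale.

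Hoxa5 differed by -3.78 ± 0.32, Hoxc9 by -2.56 ± 0.25 and Hoxc4 by -2.34 ± 0.26, each with no overlap; a second Hoxc4 probe set, dim on all 8 arrays, differed by 0.60. Hoxa7, Hoxa11, Hoxd11 and Meis1, a Hox cofactor, were called at -1.42, -1.21, -0.90 and -0.88 and lost the call without 4, 7, 3 and 6 of the 8 arrays in turn. Tbx18, a T-box factor of mesenchyme and pericytes, was the exception at 1.5 ± 0.21 (adjusted p = 0.0003). The other 29 of 42 members had no named probe set or did not pass the filter on low values. A gene that passed the filter through TA alone, as Hoxa9 did, had to differ, so these counts are a description. On the list of head and eye muscle transcription factors only 6 of 25 were tested and 0 passed (median 0.57).

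Regulators of muscle identity changed in part. Myod1 and Myf6, the determination factors of adult fibre, overlapped between the muscles: Myod1 differed by 0.18 ± 0.21 (adjusted p = 0.622) and Myf6 by 0.28 ± 0.35 (adjusted p = 0.645). Of 22 myogenic and satellite cell genes, 5 were higher and 3 lower (median 0.18), and 3 and 3 with centred arrays (0.12). The 3 lower were firm: Vgll2, a muscle cofactor of TEAD proteins (-1.64 ± 0.31), Tead1, a factor that binds muscle gene promoters (-1.12 ± 0.21), and Sox6, which represses slow-fibre genes (-1.10 ± 0.20). Tead1 read 11.01, 11.38, 11.78 and 11.6 in EOM and 12.68, 12.55, 12.56 and 12.48 in TA, so every EOM array lay below. Only Itga7, a laminin-binding integrin, was a firm rise (0.91 ± 0.20); Vcam1 (1.39), Id2 (1.34), Heyl (1.16) and Sdc4 (0.71) each lost the call without 5 or 6 of the 8 arrays. Sim2, a basic helix-loop-helix factor of limb muscle and brain midline outside these lists, fell by 2.51 (adjusted p = 6.84e-05).

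**Figure D2:**
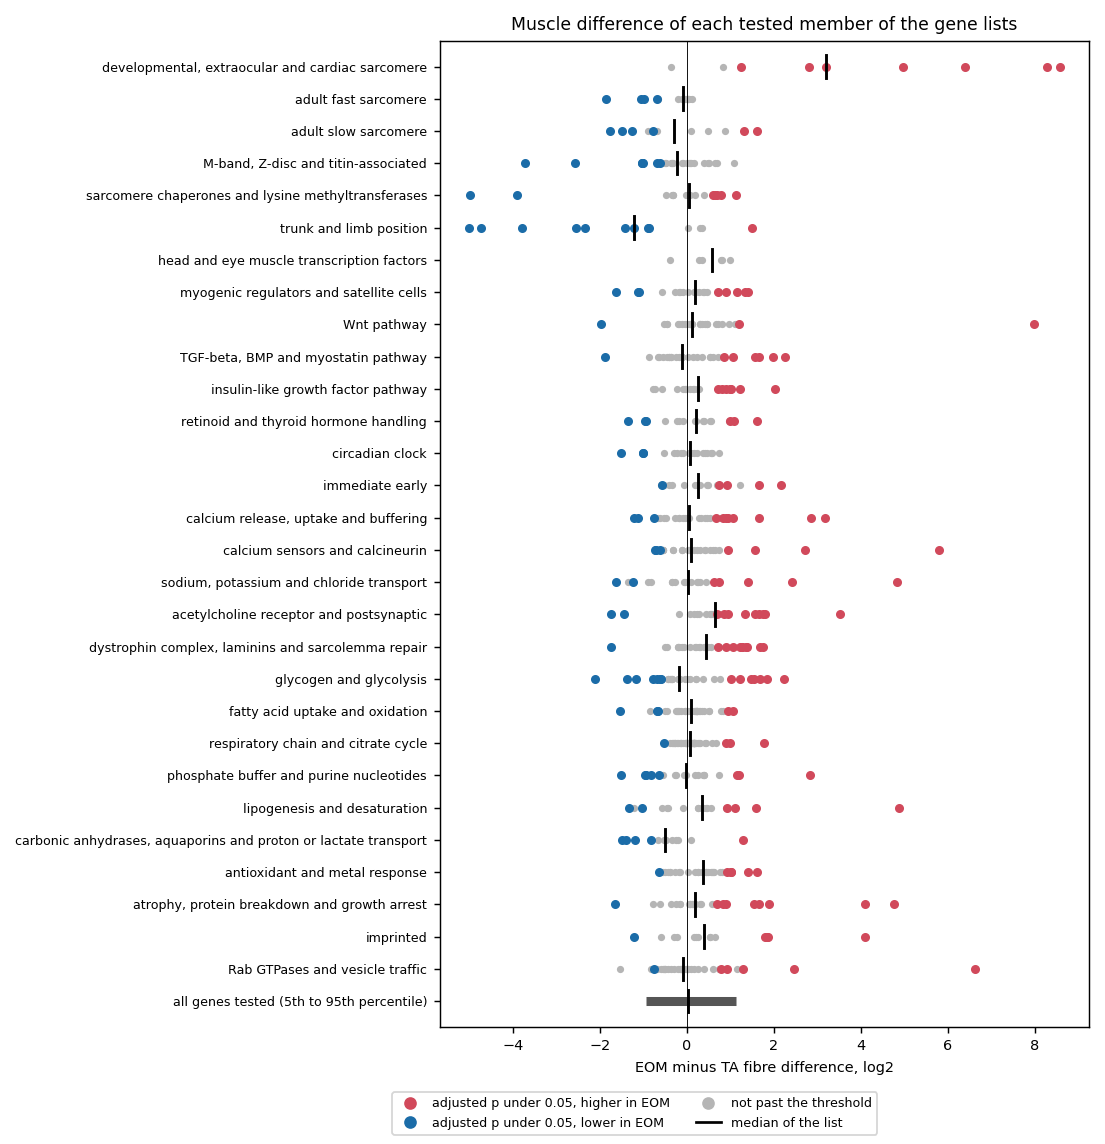
EOM minus TA fibre difference in log2 of every tested member of 29 gene lists, coloured where the adjusted p was under 0.05, with the median of each list as a black tick and the range from the 5th to the 95th percentile of all genes (-0.93 to 1.12) at the bottom. The sarcomere list at the top has a median of 3.21 and the positional list of -1.21, in part because dim genes of both lists could be tested only where 1 muscle was high, and most other lists hold a few large differences around a median near 0.

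Among Wnt pathway genes, 1 differed by far more than the rest. Frzb, a secreted protein that binds Wnt ligands and blocks them, read 13.98, 13.85, 13.93 and 13.47 in EOM and 5.54, 5.44, 6.53 and 5.82 in TA. The EOM arrays lie within 0.51 of each other and far above TA, a difference of 7.97 ± 0.32 (252-fold, adjusted p = 3.63e-09), and a second Frzb probe set gave 6.91. Wnt9a, a ligand, was lower at 6.66, 6.78, 7.25 and 7.35 against 9.12, 8.93, 8.79 and 9.1 (-1.98 ± 0.19, adjusted p = 2.44e-05). Fzd2, a receptor, was called at 1.20 but lost the call without 5 of the 8 arrays (adjusted p 0.0783 to 0.0884). The other 24 of 27 tested Wnt genes did not pass (median of the list 0.12).

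A few members of the family of transforming growth factor beta differed. On this list 6 of 31 were higher and 1 lower (median -0.10, but 0.04 on the deposited scale), and 4 and 2 with centred arrays (-0.11). Ltbp4, which stores the latent growth factor in matrix, read 9.09, 9.28, 8.95 and 8.84 against 7.54, 5.92, 6.54 and 7.19 (2.25 ± 0.28, adjusted p = 0.000159). Fst, follistatin, which neutralises myostatin and activins, read 8.11, 7.54, 8.99 and 9.17 against 5.9, 6.61, 6.87 and 6.46 (1.99 ± 0.29, adjusted p = 0.000423). No EOM array of either gene reached down to a TA array. Bmp1, a procollagen protease, was 1.57 ± 0.30 higher, with a dim second probe set at -0.36, and Ltbp3 0.86 ± 0.21 higher, a call lost with centred arrays (adjusted p = 0.0644). Bmp5, a ligand, was lower in all 4 rats (-1.87 ± 0.35, adjusted p = 0.00286), although the EOM array of rat 27, at 8.29, overlapped TA. Bmp2 (1.67) and Fstl1 (1.05) were less firm, lost without 5 and 6 of the 8 arrays, and Mstn, myostatin itself, had no tested probe set.

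The insulin-like growth factor list gave 7 higher and 0 lower of 21 tested (median 0.25), and 4 higher with centred arrays (0.14). Igfbp5, a binding protein, read 11.74, 11.62, 11.23 and 11.29 in EOM and 9.47, 8.58, 9.65 and 10.1 in TA (2.02 ± 0.29, adjusted p = 0.000395), with all EOM arrays above. Igf1r, the receptor, was 1.0 ± 0.20 higher and Igf1, a ligand, 0.99 ± 0.21 higher; the Igf1 call needed the rat as a block (adjusted p = 0.00649 with it, 0.192 without). Igf2 differed by 0.25 ± 0.30 (adjusted p = 0.63). Igfbp6 (1.22), Irs2 (0.90), Igfbp7 (0.82) and Igfbp3 (0.72) were less firm, each lost without 3 to 6 of the 8 arrays.

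Of 25 atrophy, protein breakdown and growth arrest genes, 8 were higher and 1 lower (median 0.19), and 5 and 1 with centred arrays (0.23). Cdkn1a, the cyclin-dependent kinase inhibitor p21, read 11.72, 11.65, 13.48 and 13.02 against 6.99, 8.49, 7.83 and 7.53 (4.76 ± 0.45, 27.1-fold, adjusted p = 2.24e-05). Cdkn1c, the related inhibitor p57 and an imprinted gene, read 11.79, 11.75, 12.08 and 12.49 against 7.58, 6.8, 8.84 and 8.48 (4.10 ± 0.32, adjusted p = 3.83e-06). For both, the lowest EOM array lies at least 2.91 above the highest TA array. A dim second Cdkn1a probe set differed by 0.19. Gadd45a and Gadd45g, stress-induced growth arrest genes, were 1.89 ± 0.43 and 1.65 ± 0.27 higher, and Ddit4l, an inhibitor of mTOR signalling, 1.55 ± 0.19 higher. Cebpb, a transcription factor, was the lower gene (-1.66 ± 0.31). Klf15 (0.70) lost its call without the EOM array of rat 25 or 27 or the TA array of rat 27.

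Imprinted genes, which are read from a single parental copy, gave 4 higher and 1 lower of 14 (median 0.38). Besides Cdkn1c these were Mest (1.80 ± 0.36), an imprinted hydrolase-like gene, and Dcn, the matrix proteoglycan decorin (1.84 ± 0.28), which is also on the fibroblast list. The Mest call was lost without the rat block (adjusted p = 0.0704). Plagl1, a zinc finger factor, at 1.88 lost its call without the EOM array of rat 27 (adjusted p = 0.0516). H19, a noncoding RNA, was lower at 11.35, 11.99, 12.21 and 12.44 against 12.45, 13.62, 13.4 and 13.39 (-1.22 ± 0.18, adjusted p = 0.000649), with EOM below TA in every rat and no overlap.

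Hormone, clock and immediate early genes held few firm changes. Aldh1a3, which makes retinoic acid, was 1.61 ± 0.35 higher and Rxrg, a retinoid receptor of muscle, 0.97 lower; the Rxrg call was lost without the rat block (adjusted p = 0.0516) and with probe sets averaged (0.293). Aldh1a2 (1.08), Rarb (0.98), Thrsp (-1.35) and Thrb (-0.93) were the other calls among 17 retinoid and thyroid genes (median 0.20): Rarb was lost without the TA array of rat 15 (adjusted p = 0.0541), and the other 3 without 3 to 7 arrays. Of 19 clock genes 0 were higher and 3 lower (median 0.07). Hlf, a clock output factor, fell by 1.01 and Clock by 1.02, but a bright second Clock probe set differed by 0.25, and Rora (-1.52) was lost without 4 arrays. Nr4a3, an immediate early nuclear receptor, read 8.31, 8.0, 8.61 and 9.47 against 6.46, 6.33, 6.51 and 6.42 (2.17 ± 0.28, adjusted p = 0.000216), and Egr2, an immediate early factor that also serves myelination, was 1.66 ± 0.29 higher. On that list 4 of 18 were higher and 1 lower (median 0.26), and 2 and 0 with centred arrays; Dusp1 (0.93) was lost without the EOM or TA array of rat 27, Klf4 (0.73) without 6 arrays and Jun (-0.58) without each of the 8 in turn.

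Some calcium handling genes differed. The list gave 8 higher and 3 lower of 29 (median 0.05, but -0.05 on the deposited scale and -0.20 with centred arrays, where 3 were higher and 4 lower). Pln, phospholamban, which restrains the reticulum calcium pump, read 9.79, 9.54, 9.3 and 9.63 in EOM and 5.18, 6.19, 6.76 and 7.41 in TA. The EOM arrays lie within 0.49 of each other, all above TA (3.18 ± 0.44, 9.07-fold, adjusted p = 0.000299). A bright second Pln probe set gave 3.57 and another, dim, 0.16. Sln, sarcolipin, another pump regulator, was 2.85 ± 0.53 higher (adjusted p = 0.00259), at 10.73, 10.19, 9.61 and 6.74 against 7.78, 7.06, 4.82 and 6.22; the EOM array of rat 29 lay within the TA range. Casq2, the slow and cardiac calsequestrin that stores calcium, read 11.42, 10.34, 10.16 and 9.77 against 9.37, 7.82, 9.23 and 8.64 (1.66 ± 0.33, adjusted p = 0.00399).

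Pvalb, the calcium buffer parvalbumin of fast fibres, was 1.07 ± 0.21 higher, Stac3, which couples the membrane sensor to calcium release, 0.95 ± 0.20 and Stim1, which opens store-refilling channels, 0.90 ± 0.19. All 3 calls were lost with centred arrays (adjusted p = 0.073, 0.127 and 0.112), and that of Pvalb without the rat block (0.0509). Asph, the gene of junctin, fell by 1.23, although its probe sets ran from -1.59 to 0.84. The pumps themselves differed little: Atp2a1, the fast form, by 0.28 ± 0.17 (adjusted p = 0.293), and Atp2a2, the slow form, by 0.84 ± 0.26 (adjusted p = 0.0396), a call lost without 5 of the 8 arrays, on the deposited scale (adjusted p = 0.093) and with centred arrays (0.34). Srl (0.68), Cacng6 (-1.12) and Cacng1 (-0.77) were also less firm, lost without 4, 6 and 3 arrays.

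Among calcium sensors, 4 of 26 were higher and 3 lower (median 0.10). Guca1a, an activator of guanylate cyclase best known from photoreceptors, read 10.88, 10.64, 10.51 and 10.28 in EOM and 4.28, 4.44, 4.48 and 5.94 in TA (5.79 ± 0.38, 55.4-fold, adjusted p = 8.5e-07). EOM arrays lie within 0.60 of each other, and 3 TA arrays at the floor. Sag and Rcvrn, other photoreceptor genes, lay below the array median on all 8 fibre arrays, and the part of retina in the Guca1a difference was not tested. Rcan2, which regulates calcineurin, read 12.48, 12.59, 13.18 and 12.01 against 9.62, 9.06, 10.4 and 10.32 (2.71 ± 0.28, adjusted p = 3.43e-05), with 1.45 for its second probe set. S100a1, a calcium sensor that binds the release channel, was 1.56 ± 0.28 higher. S100a13 (0.94), Calm2 (-0.73) and Nfatc3 (-0.71) were less firm, lost without 4, 4 and 5 arrays, as was Myoz1.

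Among ion transport genes, subunits of the sodium pump differed. Fxyd6, a pump regulator, read 11.05, 10.46, 9.94 and 9.8 against 6.07, 5.62, 4.45 and 5.78 (4.83 ± 0.30, 28.5-fold, adjusted p = 4.37e-07). Atp1b1, a pump beta subunit, read 13.62, 13.46, 13.65 and 13.54 against 11.27, 10.58, 11.53 and 11.19 (2.42 ± 0.20, adjusted p = 6.96e-06). Its fast-fibre partner Atp1b2 went the other way, at 7.45, 7.18, 7.67 and 6.82 against 8.24, 9.84, 8.78 and 8.8 (-1.64 ± 0.30, adjusted p = 0.00241). Kcnj8, a pore subunit of potassium channels gated by ATP, was 1.40 ± 0.34 higher (adjusted p = 0.0119). In all 5 of 20 were higher and 2 lower (median 0.03, and -0.01 with centred arrays, where 3 were higher); the exchangers Slc8a1 (0.74) and Slc8a3 (-1.23) and the channel subunit Scn4b (0.63) were less firm, lost without 7, 3 and 4 arrays.

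In these regions away from stained junctions, 9 of 22 tested postsynaptic genes were higher and 2 lower (median 0.65). Chrna1, the alpha subunit of the muscle acetylcholine receptor, read 9.21, 8.96, 9.1 and 8.57 in EOM and 5.6, 4.16, 6.55 and 5.43 in TA. TA lies around the array median and EOM at least 2.02 above the highest TA array (3.52 ± 0.32, 11.5-fold, adjusted p = 1.55e-05). Chrnd, the delta subunit, read 8.78, 7.7, 7.4 and 6.92 against 6.28, 5.08, 6.43 and 5.77 (1.81 ± 0.30, adjusted p = 0.00107), and Chrnb1, the beta subunit, was 0.85 ± 0.19 higher (adjusted p = 0.00755). The subunits that mark adult and fetal receptors did not pass: Chrne, adult, differed by 0.61 ± 0.32 (adjusted p = 0.228) and Chrng, fetal, by 0.87 ± 0.34 (adjusted p = 0.106). Both were dim in fibre, with Chrne above the array median on 1 and Chrng on 3 of the 8 arrays. The lack of a call therefore says little of either receptor form.

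Lrp4, the agrin receptor, was 1.57 ± 0.22 higher, Erbb2, a neuregulin receptor, 1.76 ± 0.34, and Prkar1a, a regulatory subunit of protein kinase A, 1.33 ± 0.19. Colq, the collagen tail of acetylcholinesterase (1.66), was lost without the EOM array of rat 27 (adjusted p = 0.0635), Macf1 (0.69) without the EOM array of rat 27 or the TA array of rat 29, and Ncam1 (0.95) without 4 arrays. Homer2, a scaffold, was lower at 6.58, 6.16, 6.17 and 5.47 against 7.49, 7.51, 7.67 and 7.47 (-1.44 ± 0.23, adjusted p = 0.000996). Dtna, dystrobrevin, was lower by its brightest probe set (-1.74 ± 0.20), but another bright probe set differed by 0.47. Snap25, Syt1 and Chat, genes of nerve terminals, lay below the array median on every EOM fibre array, but the axon genes Nefm, Gap43 and Sncg were higher (2.73, 1.65 and 1.47) and neuron marker sums did not overlap, at 807.5 to 1148.6 in EOM and 413.3 to 633.9 in TA. The part of nerve in this list was not tested.

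In the dystrophin complex, laminins and membrane repair proteins, 10 of 29 were higher and 1, Dtna, lower (median 0.44). Lama2, the laminin of adult muscle basement membrane, read 9.3, 9.36, 10.05 and 9.54 against 7.91, 6.85, 8.22 and 8.56 (1.68 ± 0.27, adjusted p = 0.000825), and Lamb2, a laminin enriched at junctions, was 1.07 ± 0.24 higher, a call lost with centred arrays (adjusted p = 0.0957). Of the annexins, which seal membrane wounds, Anxa2 was higher by 1.74, Anxa5 by 1.39, Anxa1 by 1.27 and Anxa6 by 1.23. The groups overlapped for Anxa2 and Anxa5. Sspn, sarcospan, read 11.04, 10.81, 11.09 and 11.11 against 9.43, 9.62, 10.08 and 9.88 (1.26 ± 0.17, adjusted p = 0.000282). Utrn, utrophin, was dim and differed by 0.28 ± 0.26, and Dmd had no tested probe set. Lama4 (1.35) was lost without the TA array of rat 15 (adjusted p = 0.0508) and Col6a1 (0.71) without 5 arrays. Fibroblast markers moved with this list, as given below.

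Of 34 glycogen and glycolysis genes 7 were higher and 7 lower (median -0.18), but 6 and 10 with centred arrays (median -0.51) and 8 each on the deposited scale (-0.36). Eno1, the enolase of most tissues, read 11.03, 11.11, 10.88 and 10.94 in EOM and 8.55, 8.41, 9.09 and 8.95 in TA (2.24 ± 0.21, adjusted p = 2.24e-05), whereas Eno3, the muscle enolase, differed by -0.17 ± 0.17 (adjusted p = 0.556). Ldhb, the heart-type lactate dehydrogenase, read 13.04, 12.87, 12.66 and 12.34 against 11.72, 9.72, 11.16 and 10.95 (1.84 ± 0.31, adjusted p = 0.00117), and Ldha, the muscle type, differed by -0.36 ± 0.20 (adjusted p = 0.252). In both pairs the muscle form overlapped between the groups. Pgam1 (1.46 ± 0.22) and Pygb (1.22 ± 0.28), the brain-type mutase and phosphorylase, were higher, as was Hk1, a hexokinase (1.69 ± 0.33).

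A set of 9 such pairs was assembled after the values were seen, so it describes and tests nothing. The member named first was higher in all 9, by 0.84 to 2.42, and called in each, though Ckb and Atp2a2 less firmly, Ckb without the EOM array of rat 25 or 29 or the TA array of rat 25. The second member was called lower in 2, Atp1b2 and Pgam2, of which Pgam2 (-0.70 ± 0.21) lost its call without 5 of the 8 arrays. Ckm, the muscle creatine kinase, differed by -0.02 ± 0.17 and Casq1, the fast calsequestrin, by 0.04 ± 0.21.

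**Figure D3:**
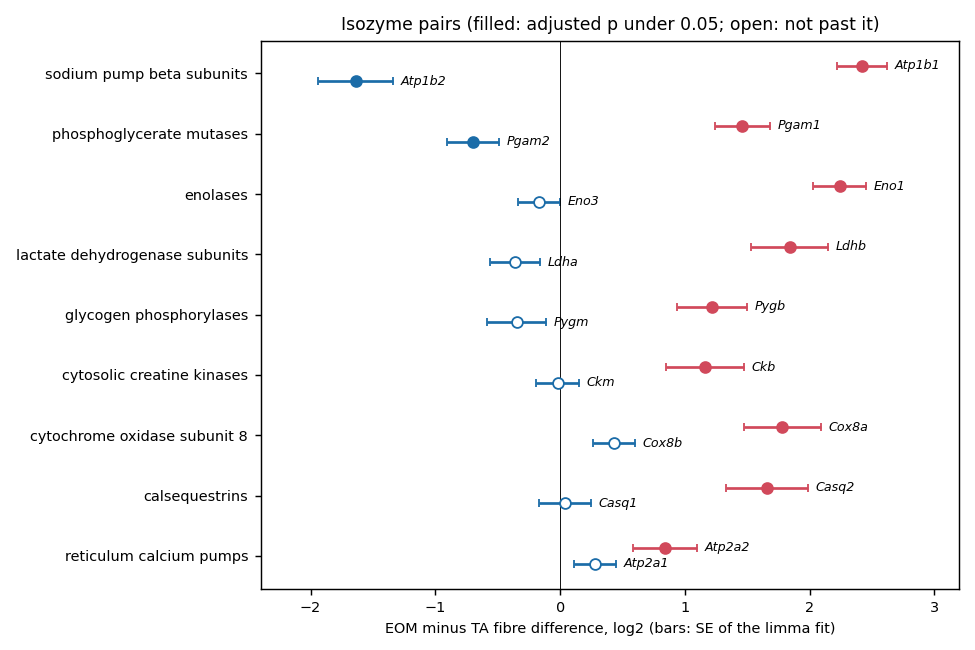
EOM minus TA fibre difference in log2 of both members of 9 isozyme pairs, with bars of 1 SE; filled points passed an adjusted p of 0.05. Red members lie between 0.84 and 2.42, and the blue partners between -1.64 and 0.43.

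Genes of enzymes that act on glycogen and glucose differed in both directions. Pfkfb1, which makes the activator of phosphofructokinase, read 8.13, 9.01, 8.73 and 9.11 against 10.8, 11.32, 10.51 and 10.81 (-2.11 ± 0.23, adjusted p = 4.79e-05). Fbp2, the muscle fructose bisphosphatase (-1.39 ± 0.27), Phka1, a subunit of phosphorylase kinase (-1.17 ± 0.19), and Gyg1, the glycogen primer (-0.78 ± 0.19), were lower in all 4 rats. Gbe1, the branching enzyme, was higher at 13.2, 13.53, 13.46 and 13.3 against 12.48, 12.39, 12.31 and 12.25 (1.01 ± 0.20), a call lost with centred arrays (adjusted p = 0.126). Aldoc (1.54) was lost without 6 arrays, Gpd1 (-0.61) without 7 and Pgm1 (-0.59) without 7.

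Mitochondrial genes stayed mostly level. In the respiratory chain and citrate cycle 3 of 43 were higher and 1 lower (median 0.08, but -0.17 on the deposited scale and -0.32 with centred arrays, where 1 was higher and 3 lower). Cox8a, the liver-type cytochrome oxidase subunit, read 12.24, 10.9, 10.87 and 10.55 against 9.38, 9.09, 9.5 and 9.47 (1.78 ± 0.31, adjusted p = 0.00169). Mdh1, the cytosolic malate dehydrogenase, was 1.0 ± 0.19 higher, lost with centred arrays (adjusted p = 0.176), and Cox6a1 (0.90) and Tfam (-0.52) were lost without 5 and 7 arrays. Ppargc1a, the coactivator of mitochondrial growth, was higher in all 4 rats at 0.82 ± 0.26 and just missed the threshold (adjusted p = 0.0509). Of 36 fatty acid genes 2 were higher and 3 lower (median 0.10, -0.03 with centred arrays): Slc27a1, a fatty acid transporter, by 1.05 ± 0.22 and Hadh, a step of beta oxidation, by -1.53 ± 0.25. Slc25a20 (0.95) was lost without the TA array of rat 15 (adjusted p = 0.0549), Plin2 (-0.66) without 6 arrays and Pdk4 (-0.70) without each of the 8.

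Lipid synthesis genes held a large single difference. Scd, a stearoyl-CoA desaturase, read 8.74, 9.29, 9.81 and 10.7 in EOM and 5.29, 4.22, 5.0 and 4.5 in TA (4.88 ± 0.48, 29.5-fold, adjusted p = 2.44e-05), and its relative Scd2 was 1.6 ± 0.28 higher. Elovl5, an elongase (0.92 ± 0.21), and Lpin2, a phosphatidate phosphatase (1.11 ± 0.26), were higher, the former lost with centred arrays (adjusted p = 0.0894). Insig1, a brake on sterol synthesis (-1.34 ± 0.29), and Me1, malic enzyme (-1.04 ± 0.23), were lower, giving 4 higher and 2 lower of 19 (median 0.34). Cidea, a lipid droplet protein, was 3.13 ± 0.31 higher (adjusted p = 2.44e-05), and Bdh1, which handles ketone bodies, 3.18 ± 0.27. Adipoq and Plin1, which define fat cells, had overlapping ranges in the 2 muscles, 4.44 to 6.94 against 4.27 to 6.5 for Adipoq.

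Phosphate and purine genes gave 3 higher and 5 lower of 19 (median -0.02, 0.03 on the deposited scale). Ak4, a mitochondrial adenylate kinase, read 8.87, 8.21, 8.53 and 8.1 against 4.22, 6.19, 6.14 and 5.84 (2.83 ± 0.37, adjusted p = 0.000216), and Ampd3, the AMP deaminase outside fast fibre, was 1.19 ± 0.22 higher. Prkag3, the fast-fibre gamma subunit of AMP-activated kinase (-1.52 ± 0.28), its catalytic partner Prkaa2 (-0.83 ± 0.18) and Adss1, the muscle adenylosuccinate synthase (-0.97 ± 0.17), were lower. Gamt (-0.94) and Adsl (-0.63) lost the call without 6 and 5 arrays.

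Car3 and Car14, carbonic anhydrases, were lower. Of 13 genes for acid, lactate and water transport 1 was higher and 4 lower (median -0.51). Car3, the abundant anhydrase of slow fibre, read 12.72, 12.78, 11.69 and 12.56 in EOM and 13.98, 13.5, 14.08 and 14.2 in TA (-1.5 ± 0.28, adjusted p = 0.00255). Car14, a membrane anhydrase, fell by 1.39 and Slc4a4, a bicarbonate carrier, by 1.19, with no overlap of the groups for either. Slc16a1 (-0.82), a lactate carrier, was lost without the TA array of rat 15 or 29. Aqp1, a water channel of capillaries, was 1.28 ± 0.26 higher, lost when probe sets were averaged (adjusted p = 0.0634). Endothelial markers as a whole summed to 3987 to 5242 in EOM and 2756 to 3740 in TA; their part in the Aqp1 difference was not tested.

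Antioxidant genes gave 5 higher and 1 lower of 29 (median 0.37), and 2 higher with centred arrays (0.24). Gsta4, a glutathione transferase for lipid peroxides, was 1.61 ± 0.25 higher (adjusted p = 0.000706), and Sod1, superoxide dismutase, read 12.99, 12.48, 13.02 and 13 against 11.89, 11.87, 12.24 and 11.79 (0.92 ± 0.18). The Sod1 call was lost with centred arrays (adjusted p = 0.0827), and Srxn1 (1.40), Selenop (1.01), Gpx1 (1.01) and Prdx3 (-0.65) were lost without 4 to 6 arrays each. In vesicle traffic 5 of 35 were higher and 1 lower (median -0.09), against 8 and 4 on the deposited scale and 5 and 4 with centred arrays, led by Rab15, a GTPase of recycling endosomes, at 10.38, 11.21, 10.74 and 11.29 against 4.21, 4.39, 4.22 and 4.33 (6.62 ± 0.42, 98.2-fold, adjusted p = 5.16e-07). All TA arrays are at the floor for that probe set, but 2 other Rab15 probe sets, 1 of them above the array median on 7 fibre arrays, differed by 0.60 and -0.10. Rab3b and Rab3a, GTPases of regulated secretion, were 2.46 ± 0.29 and 1.29 ± 0.30 higher, and Rab8a (0.92), Rab34 (0.78) and Vamp5 (-0.77) lost the call without 5, 4 and 5 arrays.

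Some of the largest changes belonged to no list. Armh4, a membrane protein of little known role, read 10.28, 9.64, 10.12 and 9.64 against 4.45, 5.27, 5.29 and 5.23 (4.86 ± 0.23, adjusted p = 1.94e-08). Ndrg4, a protein of heart and brain, was 4.79 ± 0.41 higher, Col24a1, a fibrillar collagen, 3.34 ± 0.29, and Slc38a1, a glutamine transporter, 3.18 ± 0.31, with its second probe set at 1.52. Scel, sciellin, was 3.21 ± 0.44 higher but uneven in EOM, at 5.75, 7.63, 8.5 and 8.8. Rhou, a small GTPase, read 7.02, 6.47, 7.33 and 7.16 in EOM and 11.19, 11.67, 11.24 and 10.78 in TA (-4.22 ± 0.30, 18.7-fold lower, adjusted p = 1.94e-06). Ptpn3, a tyrosine phosphatase (-2.71 ± 0.38), Ccdc181 (-2.67 ± 0.20), Amhr2, the receptor of anti-Müllerian hormone (-2.53 ± 0.28), and Mtfr1, a regulator of mitochondrial shape (-2.32 ± 0.25), were lower in all 4 rats.

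Markers of cells between the fibres also differed, and in bulk RNA more such cells cannot be told apart from more RNA per cell. Fibroblast and matrix markers were higher for 13 of 24 tested and lower for 0 (median 1.09), and their summed intensity was 11178 to 32541 in EOM and 3932 to 10902 in TA, without overlap. Lum, a matrix proteoglycan, was 2.57 ± 0.29 higher, Gsn, gelsolin, 2.23 ± 0.48, Mfap5, a microfibril protein, 2.17 ± 0.31, and Pdgfra, the receptor that defines these cells, 1.64 ± 0.22. Macrophage markers gave 5 of 15 higher (median 0.90; sums 2341 to 3784 against 1204 to 1850), with Csf1r, the receptor on which macrophages depend, 2.0 ± 0.35 higher. The defining Ptprc exceeded the array median on 3 EOM arrays and 1 TA array, and Csf1r on 4 EOM arrays and 0 TA arrays. The muscles overlapped for Ptprc and for Cd68, another macrophage marker, which read 5.63 to 6.88 in EOM and 5.43 to 6.78 in TA.

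Schwann cell and myelin markers gave 3 of 11 higher (median 0.54; sums 1858 to 2866 against 587.0 to 859.8), namely Pmp22 (2.18 ± 0.23), Mbp (1.88 ± 0.36) and Egr2. Sox10, which defines these cells, passed the array median on 1 EOM and 0 TA arrays. S100b, another of their markers, passed it on 2 EOM and 2 TA arrays. Of 16 neuron and axon markers 5 were tested and 3 were higher: Nefm, a neurofilament (2.73 ± 0.37), Gap43, a growth cone protein (1.65 ± 0.23), and Sncg (1.47 ± 0.24). Nefl and Chat lay below the array median on all 8 arrays. Nefm exceeded it on 4 of the 8, with a TA mean of 4.53 near the floor. Markers dim in TA could pass the filter through EOM, so these counts, medians and sums are a description. The part of any of these cells in the rises of matrix, laminin, annexin, growth factor or vesicle genes given above was not tested.

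Tendon markers gave 1 of 5, Thbs4 (1.78 ± 0.44). Endothelial markers gave 2 of 14, Vwf (1.21) and Emcn (0.82), and smooth muscle markers 1 of 13, Myocd (0.96), each lost without at least 3 arrays. Adipocyte markers gave Cidea up and Plin4 down (-0.73, lost without 6 arrays) of 8. Erythrocyte, retina and lens, and gland markers gave 0 of 3, 0 of 3 and 0 of 1. Pigment cell markers were lower for 1 of 2, Mitf (-0.98 ± 0.19). The 12 muscle fibre markers had 0 higher and 2 lower, Acta1 and Neb, with a median of -0.09 (-0.49 on the deposited scale and -0.64 with centred arrays) and overlapping sums of 183914 to 255952 in EOM and 234242 to 411297 in TA.

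**Figure D4:**
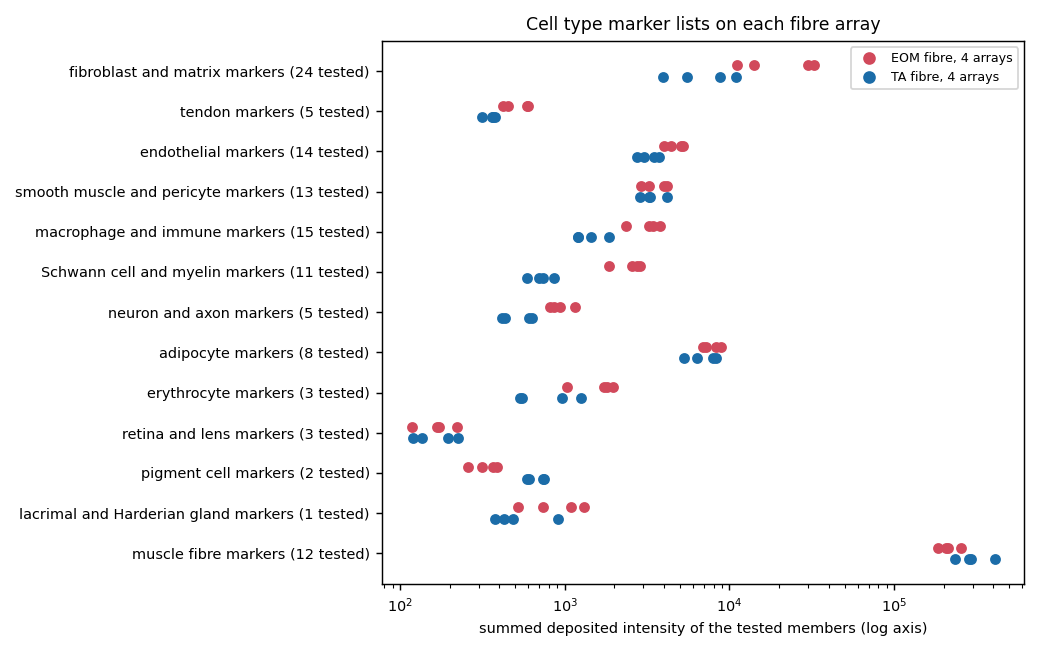
Summed deposited intensity of the tested members of each marker list on the 4 EOM and 4 TA fibre arrays, on a log axis. Muscle fibre markers sum to about 183914 to 411297 on all 8 arrays, and the fibroblast, macrophage, Schwann cell and neuron sums lie higher on every EOM array than on any TA array.

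Among EOM arrays the genes of largest spread were the sex-linked Xist and Eif2s3y, the matrix gene Postn and the muscle genes Myh3 and Sln; after the same sex-linked pair, those of TA were Ephx2, Ccm2 and Ttc28, which read 4.38 to 8.28. The median standard deviation over 4 arrays was 0.41 in EOM and 0.39 in TA, and it exceeded 1 for 371 and 501 genes. Postn, a matrix protein made by active fibroblasts, read 4.52, 6.1, 9.48 and 9.48 in EOM and 4.81, 4.49, 7.51 and 6.74 in TA, high in rats 27 and 29 in both muscles. Col3a1 followed the same rats, at 9.64, 10.24, 12.83 and 12.78 in EOM and 9.59, 8.8, 11.11 and 11.38 in TA, as did Col1a2. With the rat as a block their muscle differences were 1.15 ± 0.26 and 1.31 ± 0.27 and passed (adjusted p = 0.00932 and 0.00527); without it neither did (0.378 and 0.286). Fbn1, fibrillin, was uneven in EOM, with rat 15 at 6.69 and the rest at 9.1 to 9.88. Myh3 and Sln, the muscle genes of largest spread in EOM, were both lowest on the array of rat 29, which was also lowest for Tnnt2 and Myh8. Other genes of the developmental and cardiac sarcomere list did not follow. Mybphl was highest on that array (11.56), Myh6 was lowest in rat 15 (7.46) and Myh13 in rat 27 (13.89).

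The last comparison asked whether the muscle difference in fibre was unlike that at the junction. The interaction, which is the muscle difference in fibre minus that at the junction, passed for 96 genes (0.922% of those tested), 42 of them among the 1620 called in fibre (2.59%). Of the 42 the difference was larger in fibre for 28, 22 of them higher in EOM. These 42 had to be called in fibre, which favours large fibre differences, so that split is only a description. Chrna1 differed by 3.52 in fibre and by 0.63 at the junction (interaction 2.89, adjusted p = 0.00698), and Lrp4 by 1.57 and -0.17 (1.75, adjusted p = 0.0175). For both postsynaptic genes the excess of EOM was larger away from the junction, by the interaction test. Cdkn1c gave 4.10 and 1.12 (2.98, adjusted p = 0.00574), Rab15 6.62 and 3.81 (2.80, adjusted p = 0.041), Rab3b 2.46 and 0.35 (2.11, adjusted p = 0.03), Armh4 4.86 and 2.73 (2.13, adjusted p = 0.00574) and Lama2 1.68 and -0.10 (1.78, adjusted p = 0.0407).

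Other genes differed less in fibre than at the junction. Myom2 was lower by -3.73 in fibre and -7.15 at the junction (interaction 3.42, adjusted p = 0.00207), Car3 by -1.5 and -6.22 (4.72, adjusted p = 3.54e-05), Prkag3 by -1.52 and -3.77 (2.25, adjusted p = 0.0133), and Mybpc2 by -1.04 and -2.49 (1.45, adjusted p = 0.0285). Fst was higher by 1.99 and 3.99 (-2.0, adjusted p = 0.0326) and Rcan2 by 2.71 and 5.31 (-2.60, adjusted p = 0.00574). Ampd3 instead changed direction, called higher in fibre (1.19) and lower at the junction (-0.88, adjusted p = 0.0147 in the same limma fit). Its interaction was 2.07 (adjusted p = 0.00574). For Myh13 (8.58 and 8.98), Frzb (7.97 and 6.74) and Hoxa9 (-5.01 and -5.07) the interaction did not pass (adjusted p = 0.821, 0.303 and 0.974). For Myh3 the difference was 6.40 in fibre and 1.92 at the junction, and the interaction missed the threshold (adjusted p = 0.0819).

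**Figure D5:**
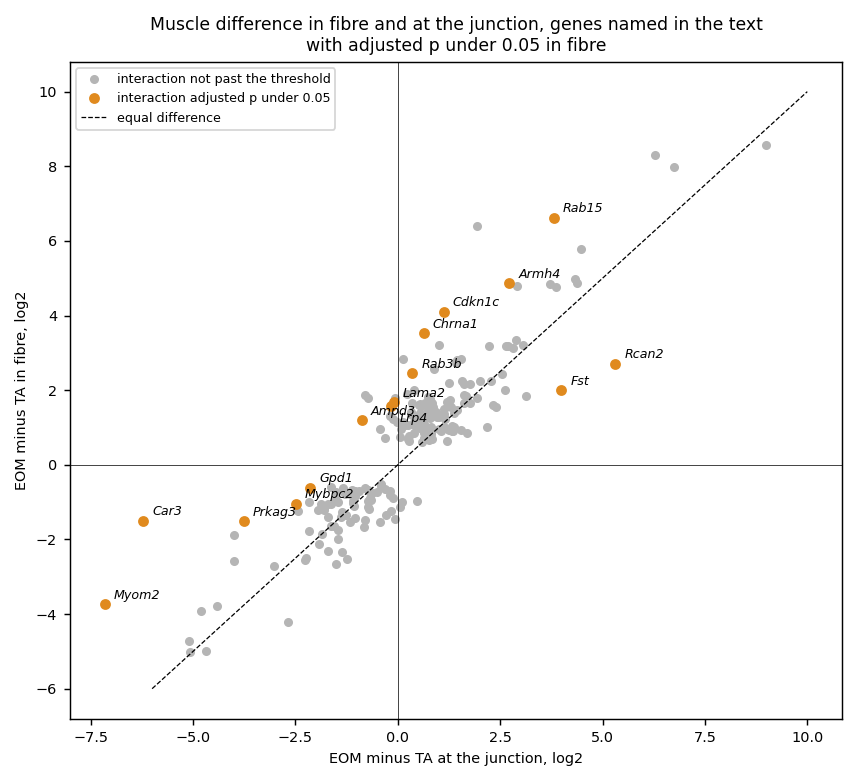
Muscle difference (EOM minus TA, log2) in fibre against the same difference at the junction for the 220 genes named here that passed in fibre; the 15 orange genes passed the interaction at an adjusted p of 0.05 and the dashed line marks equal differences. Car3 and Myom2 lie far left of the line, larger at the junction, while Chrna1, Cdkn1c, Rab3b and Rab15 lie above it, larger in fibre.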

How the data were processed

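The 8 fibre arrays and 8 junction arrays came from 4 rats, with 4 arrays in each group. RNA went through 2 rounds of amplification and biotin labelling, with 600 ng of amplified RNA carried forward, per the labels' protocols. The authors deposited linear intensity per probe set, scaled to an equal trimmed mean on each array; how probes were summarised is not stated there. Depth does not apply, and the number of arrays limits the precision. Because array medians spread by 0.564 in log2, log2(intensity + 16) was quantile normalized. The array's annotation gave 20826 probe sets 1 gene, 436 several and 9780 none, with symbols from GRCr8; the brightest probe set stood for its gene.

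The fit was limma 3.58.1 (R 4.3.3) on all 16 arrays, with the rat as a block and Benjamini-Hochberg adjustment over 10416 genes. The rat number in the labels was read as the animal: arrays of the same number correlated, after group means were removed, at r = 0.112 on average (24 pairs, -0.0666 to 0.245), and the fibre pairs of rats 15, 25, 27 and 29 at 0.113, -0.0666, 0.169 and 0.00831, across genes, which are not independent replicates. Steps were tested on simulated data. Named genes were the 20 largest firm rises and falls, up to 4 firm members of each list in each direction, the genes of largest spread and a fixed set; less firm list members and isozyme pairs were added after their values were seen. Members and lists were chosen with earlier results of these data known. Alternatives covered scaling, pseudocount, filter, probe set rule, block, prior, a fold minimum and leaving out arrays or rats.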

Additional observations from a re-analysis of the deposited data

Results flagged for a closer look

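Of 486 groups of 4 values checked for the named genes, 25 held a value far from the other 3, about what chance gives at 1 in 20. Xist stood apart on the EOM (11.43) and TA (10.19) arrays of rat 25, and Eif2s3y on the same arrays (4.17 and 4.08). The EOM array of rat 15 stood apart for Myh13 (14.66), Hk1 (7.88) and Pgam2 (13), all high, and Dcn (10.14), low. The EOM array of rat 25 was high for Myh4 (15.33) and low for Sod1 (12.48), and that of rat 27 was low for Myl3 (10.17) and Casq1 (12.61). Cacng6 was high (5.78) on the EOM array of rat 25 and Aldoc low (4.88) on that of rat 29. Among TA arrays, rat 29 was high for Guca1a (5.94), Prkag3 (10.96), Fzd2 (6.42), Gamt (7.98) and Irs2 (7.76), rat 15 low for Armh4 (4.45), Mbp (4.38) and Hoxd11 (5.6), rat 25 low for Gpx1 (9.87) and Slc8a1 (7.34), and rat 27 low for Klf15 (7.34).

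The muscle difference in fibre was unlike that at the junction, by the interaction test, for 15 of 243 named genes. It was more positive in fibre for Car3 (4.72), Myom2 (3.42), Cdkn1c (2.98), Chrna1 (2.89), Rab15 (2.80), Prkag3 (2.25), Armh4 (2.13), Rab3b (2.11), Ampd3 (2.07), Lama2 (1.78), Lrp4 (1.75), Gpd1 (1.53) and Mybpc2 (1.45). It was less positive in fibre for Rcan2 (-2.60) and Fst (-2.0). Of these, Car3, Myom2, Prkag3, Gpd1 and Mybpc2 were lower in EOM at both sites and less so in fibre. Without 1 rat there were 23 to 47 interactions in place of 96.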

How the results depend on the processing

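Counts moved with the processing. Of the 220 called genes named in the text, 71 of them only as less firm list members, 0 changed sign under any alternative run. All had passed the threshold in the main run, and firm genes by definition had the same sign in every rat. A reversal was therefore unlikely from the choice of genes, so the 0 is no separate test of direction. The 1620 calls became 943 (574 higher, 369 lower) with a minimum difference of 1 and 732 (430 higher, 302 lower) from the 8 fibre arrays alone with the replicate block. In that fit 78 named calls were lost, and 11 of all 243 named genes, called or not, had no value. The lost calls included those of Actn3, Actn2, Mybpc1, Igf1, Clock, Chrnb1, Gyg1, Slc27a1, Prkaa2, Insig1 and Thbs4. Without 1 fibre array the counts ran from 1185 to 1444 (632 to 793 higher, 499 to 724 lower), without 1 junction array from 1471 to 1717 (800 to 934 higher, 663 to 783 lower), and without 1 rat from 976 to 1197 (562 to 693 higher, 391 to 596 lower). Calls fell by over 1.5 times without rat 15 (976) or rat 27 (982). Centring arrays on their medians gave 559 higher and 684 lower, and the deposited scale 1146 and 752, so the share of rises among calls, 54.0%, depends on the scaling; the median of all genes was 0.03, 0.11 as deposited and -0.04 centred. Centring lost 42 named calls, 30 of less firm genes and Col3a1 (adjusted p = 0.13) among them, and the deposited scale 13. Without the replicate block 749 were higher and 634 lower, and 39 named calls were lost, 32 of less firm genes and Pgam2 (adjusted p = 0.06) among them. Averaging probe sets lost 15, including Clock (adjusted p = 0.215), Asph (0.0821), Pdk4 (0.721) and Selenop (0.667). The 96 interactions became 56 with centred arrays, 46 and 218 with pseudocounts of 1 and 64, 61 with every probe set, 204 with an intensity trend, 64 to 105 without 1 fibre array, 56 to 77 without 1 junction array and 23 to 47 without 1 rat; rat 27 gave the 23. The cause of these moves was not tested.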
